A study of Rattus norvegicus with 2 samples.

Results

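The circadian clock genes are 10 genes of the daily transcriptional feedback loop, Clock, Bmal1, Npas2, Per1, Per2, Per3, Cry1, Cry2, Dbp and Nr1d1. They were found by matching the transcript accession of each array probe outside the controls to the rat RefSeq genes, where Bmal1 was formerly called Arntl. All 10 had a matched probe, out of 16581 genes named in this way, and all 10 were well above background on both arrays. Gene expression had been compared between male and female spontaneously hypertensive rats (SHR), an inbred strain that develops high blood pressure, in the nucleus of the solitary tract (NTS), the brainstem centre that receives cardiovascular and visceral input. Both groups were SHR of 9 weeks of age, fed and watered freely up to the day of collection and killed by decapitation after inhaling ether. The labels name no other treatment or transgene, and sex is the one difference they give. Each group was a single pool of RNA from 5 rats, 100 ng from each, read on 1 array with 1 colour. The 2 arrays therefore give no spread between rats or pools, and neither tests nor p-values are reported. The time of day at which tissue was taken is not given in the sources used here.

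The mammalian clock is a loop in which BMAL1, paired with CLOCK or its paralog NPAS2, binds E-box sequences and drives transcription of the Per and Cry genes. PER and CRY proteins accumulate, enter the nucleus and inhibit that same pair, which closes the loop over about a day. The nuclear receptor REV-ERB alpha, encoded by Nr1d1, represses Bmal1 through ROR elements, while ROR receptors activate it through the same elements, and DBP drives output genes through D-boxes. The suprachiasmatic nucleus holds the master clock, and brainstem centres, the NTS among them, also have clock gene rhythms.

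The 3 promoter stretches below are shown because they hold letters that match elements of the loop or variants of them. Each is the 250 bases before the annotated start, from the RefSeq table of assembly GRCr8, printed 5′ to 3′ on the strand of the gene, with matched motifs in capitals. The array files use no coordinates of that assembly.
Per2, chr9:99496994-99497243, minus strand: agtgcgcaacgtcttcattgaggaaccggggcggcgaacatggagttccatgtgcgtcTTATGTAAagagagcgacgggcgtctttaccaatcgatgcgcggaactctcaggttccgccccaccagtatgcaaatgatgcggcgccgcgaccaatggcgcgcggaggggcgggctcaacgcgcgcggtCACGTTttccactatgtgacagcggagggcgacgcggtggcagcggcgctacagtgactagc
Bmal1, chr1:176766078-176766327, plus strand: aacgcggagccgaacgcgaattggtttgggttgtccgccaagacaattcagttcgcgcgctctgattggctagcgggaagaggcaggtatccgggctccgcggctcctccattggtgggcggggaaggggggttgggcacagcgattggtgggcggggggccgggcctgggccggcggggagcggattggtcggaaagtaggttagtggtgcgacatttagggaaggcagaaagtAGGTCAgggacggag
Nr1d1, chr10:84231813-84232062, minus strand: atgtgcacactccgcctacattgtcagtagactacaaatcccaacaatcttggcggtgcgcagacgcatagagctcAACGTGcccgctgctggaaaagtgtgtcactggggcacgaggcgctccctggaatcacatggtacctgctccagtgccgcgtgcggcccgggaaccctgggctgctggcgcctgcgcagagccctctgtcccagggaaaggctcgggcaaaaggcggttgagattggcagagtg
In Per2 the capitals mark a D-box, TTATGTAA, 192 to 185 bases before the start, and an E-box variant, CACGTT, 62 to 57 bases before it. In Bmal1 they mark the core of a ROR element, AGGTCA, 15 to 10 bases before the start. In the Nr1d1 stretch they mark CACGTT read on the other strand, 174 to 169 bases before the first of its annotated starts. The search took both strands for the E-box CACGTG, the variant CACGTT, the D-boxes TTATGTAA and TTACGTAA, and AGGTCA. Windows were matched for 9 of the 10 genes, the other being Cry1, and there were 11 windows in all, since Clock and Nr1d1 have several starts. CACGTG was found for 1 gene, Nr1d1 at its other start, and CACGTT for 3, namely Per2, Cry2 and Nr1d1. The D-box was found for Per2 and AGGTCA for Bmal1. Over all 33469 windows of the same length, 5.59% held CACGTG, 4.07% CACGTT, 0.932% a D-box and 14.1% AGGTCA. A match describes letters in these windows and was not tested as a binding site.

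Signals are given as scaled signal, the background-corrected spot intensity set so that the 75th percentile of each array is 100. Differences are log2, female minus male, and values in males and in females are those of the 1 pool of each sex. The error beside a difference is the error that the scanner software estimates for the spots on both arrays, averaged over the spots of a gene. It was about 10% of the signal for a bright spot and reached 12.2% for the dimmest member probe, and it covers spots, not rats or pools. Over 1320 probes with at least 8 spots, the median SD of the difference between repeated spots was 0.041, which is smaller than the scanner error of 0.20 on the same scale. Probes of different genes bind with different strength, so signals are compared between arrays only. Genes were also placed in 4 classes of equal size by mean signal. Of the 10 members, 6 were in the third class, 2 in the brightest and 2, Clock and Nr1d1, in the dimmest.

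Both arrays had 58717 spots outside the controls, of which 80.1% in males and 82.3% in females were well above background, and none was saturated. The number of arrays limits the precision. The sex labels were checked with Eif2s3y, a Y-linked translation factor gene, which read 22.4 in the male pool and at least 65-fold less in the female pool, where it was not well above background. Of 2 probes of Ddx3y, a Y-linked RNA helicase gene, the first read 6.94 in males and was below background in females, while the other read 24.3 and 10.2, above background in both. Markers of the dorsal medulla were present on both arrays, with Th at 602 and 532 and Dbh at 399 and 381 in males and females, genes of noradrenaline synthesis. Tlx3 and Hoxa4 had no named probe and were not used here. Of 7 suprachiasmatic nucleus genes, Prok2 and Six6 were below background on both arrays, Vip was above it in the female pool alone, at 0.613, and Nms had no named probe. Avp read 6.98 and 7.26, Lhx1 2.62 and 2.57, and Grp 140.1 and 173.

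No clock member differed 1.5-fold between the sexes, against 2.29% of 13428 measured genes past that limit. The only member past 1.2-fold was Npas2, higher in the female pool as were 7.31% of all genes, 2.65% with the dimmest class left out and 1.97% of its own class. None was 1.2-fold higher in the male pool, where 4.48% of all genes were. The median difference over the 10 members was 0.14, and the median over all measured genes was 0.016. The error of 0.082 for the members treats the 10 genes as independent. It leaves out any shift shared by all genes of an array. By sign, 8 of 10 members were higher in the female pool, where 55.5% of all genes were. With the dimmest class left out these were 7 of 8 members and 54.5% of genes. Clock, Per3, Cry2 and Nr1d1 lay close to 0, and the count was between 6 and 9 under other settings. The share of all genes was 44.8% with median centring, with 6 members higher, and 76.6% with spike-in centring, with 9 members higher. Above the median of all genes lay 7 members, counting Per3, which was level with it. Under other settings 6 or 7 members lay above that median. In RNA from whole tissue, fewer cells of a type and less RNA per cell cannot be told apart.

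**Figure D1:**
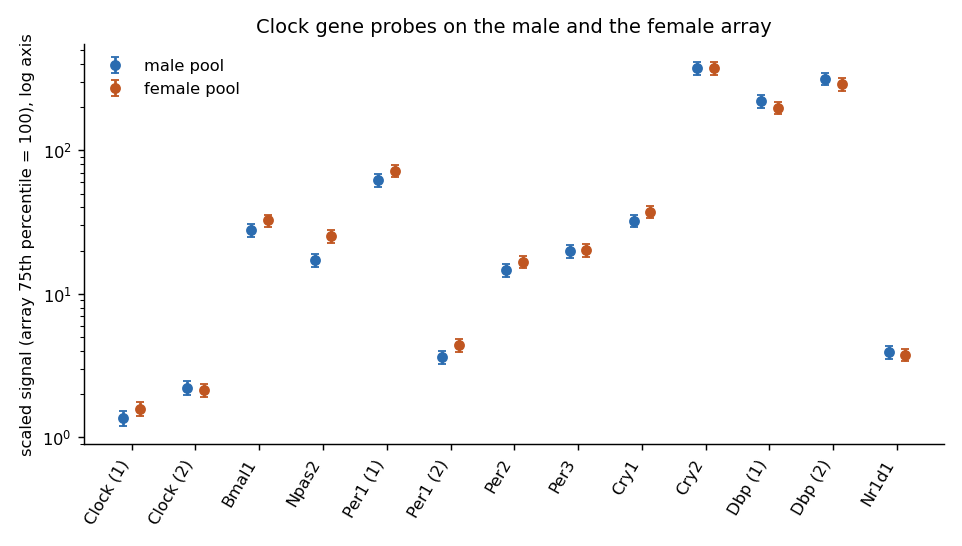
Scaled signal of each clock gene probe (log axis) in the male pool (blue) and the female pool (orange), with bars for the scanner error; genes with several probes are numbered. Npas2 shows the widest gap, 17.2 against 25.1, while the points of Per3, Cry2 and Nr1d1 nearly coincide; signals of different probes are not comparable.

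Among the activators, Npas2 stood apart. NPAS2 is the paralog of CLOCK that is abundant in the forebrain and can pair with BMAL1 in its place. Its probe read 17.2 in males and 25.1 in females. That is a 1.46-fold difference, 0.55 with an error of 0.20, and it passed 1.5-fold, at 0.61, with spike-in centring alone among 13 other settings. Bmal1, the partner that CLOCK and NPAS2 share, read 27.8 in males and 32.5 in females, 1.17-fold higher, a difference of 0.22 that was 1.09 times its error. Clock itself was dim and its 2 probes went in opposite directions, from 1.36 to 1.58 on the first and from 2.22 to 2.12 on the second, male to female. Their mean gave a difference of 0.076 with an error of 0.23, and it turned to -0.065 when the brighter probe was taken alone. With normexp background correction, with no background correction and with the brightest probe, Clock was lower in the female pool. The difference of Npas2 exceeded that of Clock by 0.47, with an error of 0.31 for the gap.

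Among the repressors, Per1, Per2 and Cry1 were higher in the female pool by similar amounts and Per3 and Cry2 were level. Per1 and Per2 encode the light- and hormone-responsive period proteins that inhibit BMAL1 with the cryptochromes. The first Per1 probe read 62.1 in males and 72.2 in females, and the other read 3.61 and 4.37. Both thus pointed the same way, by 0.22 and 0.27, and the gene value was 0.25 with an error of 0.21. It was 0.12 with normexp and 0.15 with no background correction, both within that error. Per2, whose promoter stretch above holds the D-box and CACGTT, read 14.6 and 16.8, a difference of 0.20 that was 0.966 times its error. Per3, the period gene least needed for rhythm, read 19.9 and 20.1, a 1.01-fold difference. Its difference of 0.016 turned negative with quantile, median and loess scaling. The mean of Per1 and Per2 exceeded Per3 by 0.21, with an error of 0.25.

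The cryptochromes are the strongest inhibitors of the BMAL1 pair. Cry1 read 32.4 in males and 37.3 in females, 1.15-fold higher, with a difference of 0.20 and an error of the same size. Cry2 was in the brightest class, at 373 and 374, and its difference of 0.0058 was the smallest of the 10. It turned negative with normexp, with no background correction and with median centring. The gap of 0.20 between the cryptochromes was within its error of 0.29.

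**Figure D2:**
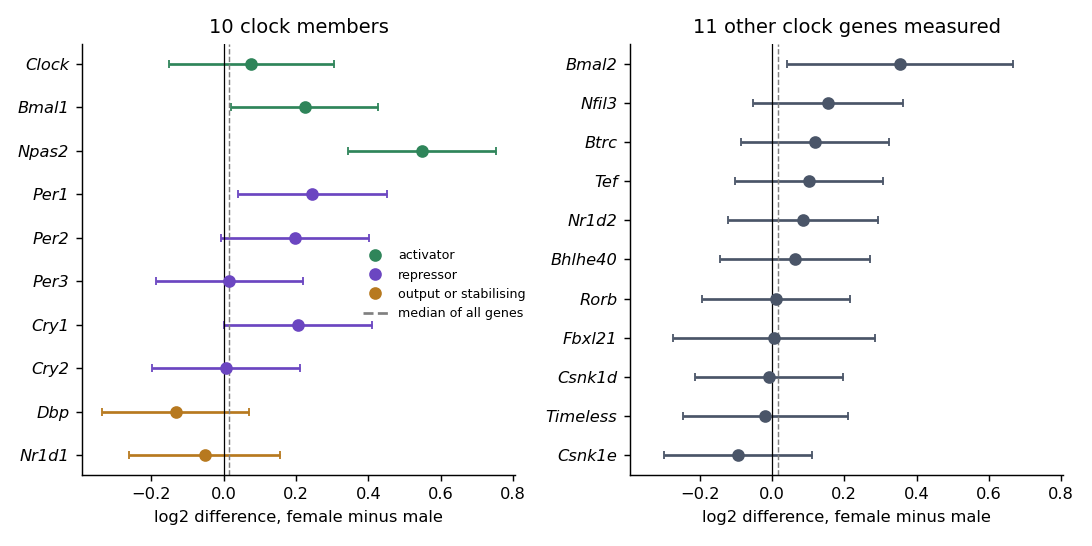
Log2 difference, female minus male, of the 10 members (left, coloured by role) and of 11 other clock genes measured (right); bars are the scanner error and the dashed line is the median of all genes, 0.016. The bars of Npas2, Per1, Bmal1 and Cry1 on the left and of Bmal2 on the right lie wholly above 0.

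Dbp and Nr1d1 were the only members lower in the female pool. Dbp encodes a PAR-domain transcription factor that carries clock time to output genes, and its transcript has a large daily swing in many tissues. It had a probe with 10 spots, which ran from 302 to 332 with a median of 316 in the male pool, and from 271 to 312 with a median of 288 in the female pool. The spot ranges overlapped, yet each of the 10 spots was brighter in the male pool than its counterpart at the same position in the female pool. The mean ± SD over these spots was 315 ± 10.1 in males and 289 ± 11.6 in females (n = 10 spots of 1 pool each). The other Dbp probe read 219 and 199. The 2 probes gave -0.13 and -0.14, and the spot differences had an SD of 0.053. Dbp was lower in the female pool under all 13 other settings, from -0.17 to -0.067, with -0.13 within the scanner error of 0.20. Nr1d1, the repressor of Bmal1, was dim at 3.91 in males and 3.76 in females. Its difference of -0.053 turned to 0.013 with centring on spike-in controls.

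**Figure D3:**
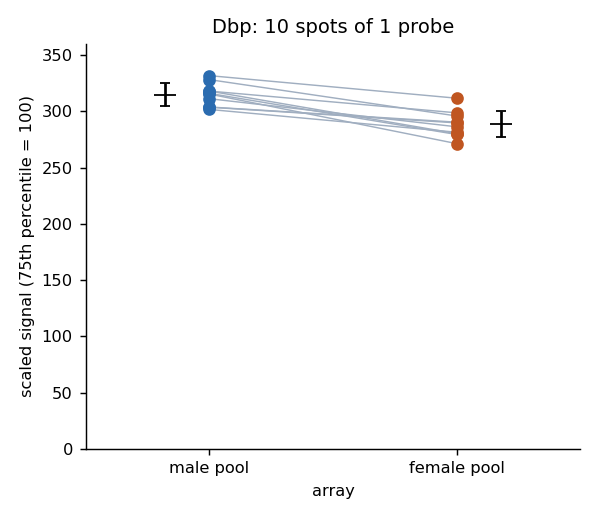
Scaled signal of the 10 spots of 1 Dbp probe on the male and the female array, with lines joining spots at the same array position and black marks for the mean and SD over spots. All 10 lines slope down towards the female array, while the ranges of 302 to 332 and 271 to 312 overlap.

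The positive limb was then set against the negative limb. Over the activators Clock, Bmal1 and Npas2 the mean difference was 0.28, with an error of 0.12 that treats spots as independent. Over the repressors Per1, Per2, Per3, Cry1 and Cry2 the mean was 0.13 with an error of 0.092. The activators minus the repressors gave 0.15, as large as its error of 0.15. With Npas2 left out, a choice made after its value was seen, that contrast was 0.016, so it rested on 1 gene. Bmal1 exceeded Dbp by 0.36, with an error of 0.29. It exceeded its repressor Nr1d1 by 0.28, which was within the error of 0.29.

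Set against genes of the same signal class, 5 of the members lay high. The third signal class held 3357 genes, and the middle 90% of their differences ran from -0.15 to 0.195. Of the 6 members there, Npas2, Per1, Bmal1, Cry1 and Per2 lay above that range and Per3 lay inside it. The lowest of these, Per2 at 0.197, passed the upper end by a small margin. Per2, at 14.6 in males and 16.8 in females, was also close to the lower edge of the class, 15.4. Per1 was placed there by the mean of a bright probe, 62.1 and 72.2, and a dim probe, 3.61 and 4.37. In the second class the range was -0.22 to 0.27, which would hold both Per2 and Per1, at 0.25. These 5 were also the members at least 1.1-fold higher in the female pool, a limit chosen after the values were seen, which 18.8% of all genes and 11.6% of the third class passed. In the brightest class that range was -0.14 to 0.15, with Cry2 and Dbp inside it. In the dimmest class it was -0.41 to 0.58, with Clock and Nr1d1 inside.

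**Figure D4:**
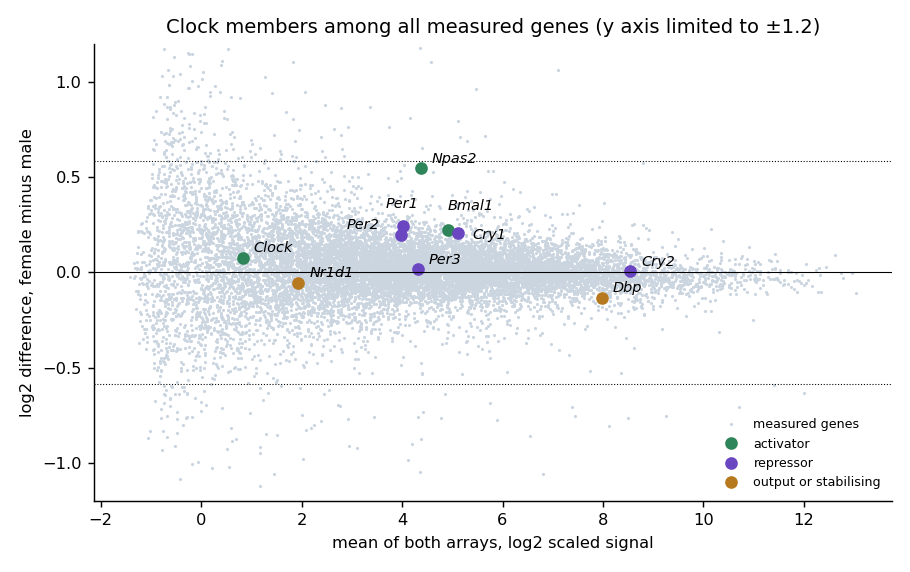
Log2 difference, female minus male, against the mean log2 scaled signal of both arrays, with 13428 measured genes in grey and the clock members in colour; dotted lines mark 1.5-fold. Npas2 at 0.55 lies just under the upper line, Per1, Bmal1, Cry1 and Per2 lie together between 0.20 and 0.25, and the spread of the grey points widens to the left.

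The wider clock list had 18 genes, of which 13 had a named probe and 12 were measured on both arrays. Its median difference was 0.074. In the female pool 9 of these genes were higher and in the male pool 3, beside 55.5% of all genes higher in the female pool. None passed 1.5-fold, beside 2.29% of all genes. Bmal2, the paralog of Bmal1, was the one gene past 1.2-fold, higher in the female pool as were 7.31% of all genes. Bmal2 was in the dimmest class, and its difference lay between the 5th and 95th percentiles of that class, -0.41 and 0.58. Its 2 dim probes read 0.541 and 0.948 in the male pool and 0.646 and 1.30 in the female pool, a mean difference of 0.36 with an error of 0.31. Ciart, a repressor of the BMAL1 pair whose promoter window holds CACGTG at 3 places, was above background in the female pool alone. It read 0.515 there and 0.376 in the male pool. The ratio of 1.37 is not a lower bound, since the male reading was not well above background. Rora, Bhlhe41, Hlf and Fbxw11 had no named probe and were not used here.

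Within the accessory loops the differences were small. Nr1d2, the paralog of Nr1d1, had probes in opposite directions, from 129 to 123 and from 2.98 to 3.53, male to female. Rorb, which acts on the same elements as REV-ERB, differed 1.01-fold. Nfil3, which competes with DBP at D-boxes, read 4.89 and 5.44, a difference of 0.15. Tef, a close relative of Dbp, read 188 and 202, a difference of 0.10 in the opposite direction to Dbp, and Bhlhe40, an E-box repressor, differed by 0.063. Of the enzymes that set PER and CRY stability, the kinase genes Csnk1d and Csnk1e differed by -0.0081 and -0.094. The genes Fbxl21 and Btrc, whose products direct ubiquitin ligases to CRY or PER, differed by 0.0054 and 0.12. Timeless differed 1.01-fold. Taken as gene values, each of these lay within its scanner error.

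Of 8 output genes that the clock is known to drive, 5 were higher in females and 3 in males, a share near the 55.5% of all genes higher in females, with a median of 0.045. Wee1, a mitotic kinase gene under E-box control, had probes at 0.20 and 0.18. Its gene value of 0.19 was close to those of Per2 and Cry1, though within its error of 0.20. Pdk4, a kinase of fuel switching, was dim and read 1.40 in males and 1.00 in females, 1.39-fold lower, the one output gene past 1.2-fold. The 2 probes of Cdkn1a, a cell cycle inhibitor gene, disagreed. A probe with 9 spots was 1.39-fold higher in the female pool, at 41.1 and 57.04, and a dim probe was 1.13-fold lower there. Tsc22d3 differed by 0.15, Alas1 by 0.048, Usp2 by 0.041, Por by -0.030 and Nampt by -0.075.

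The arrays also differed in markers of several cell types. Over all genes, 2.29% passed 1.5-fold in either direction and 55.5% were higher in the female pool. In the female pool all 11 choroid plexus genes passed 1.5-fold, led by Kcnj13 at 23.5-fold, Sostdc1 at 18.8-fold, Ttr at 15.1-fold and Prlr at 7.79-fold. Their summed scaled signal was 811 in males and 9852 in females, of which Ttr, the transthyretin gene, gave 617 and 9325. In the male pool all 5 red blood cell genes passed 1.5-fold, among them Slc4a1, Ahsp, Hbb and Alas2, with sums of 5396 and 3467. The 9 oligodendrocyte genes all lay higher in males, by a median of -0.22 with none past 1.5-fold, and with sums of 2220 and 1866. In the meningeal list of 7 genes, 5 were higher in the female pool and 2 in the male pool, with a median of 0.14. Slc47a1 and Igfbp2 passed 1.5-fold towards the female pool and Col1a2 towards the male pool. The sums of 633 in males and 554 in females rest largely on Col1a2, at 469 and 276. Of 5 measured cerebellar genes all were higher in the female pool, with a median of 0.18, and Gabra6 was below background on both. The sums were 127 and 142, of which Cbln1 gave 112 and 125. Fat2 passed 1.5-fold but was dim, at 0.475 and 0.972, with a scanner error of 0.34. The medians of the other lists were 0.044 over 4 ependymal, -0.073 over 7 astrocyte, -0.070 over 6 microglial, -0.040 over 6 neuronal and -0.12 over 5 endothelial genes. All 11 choroid plexus and all 5 red blood cell genes had a probe well above background on both arrays. Several were dim in the male pool, with Kcnj13 at 0.839, Clic6 at 0.785 and Prlr at 0.741. The lowest signal well above background on that array was 0.365. The part of these markers in the clock gene differences was not tested.

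**Figure D5:**
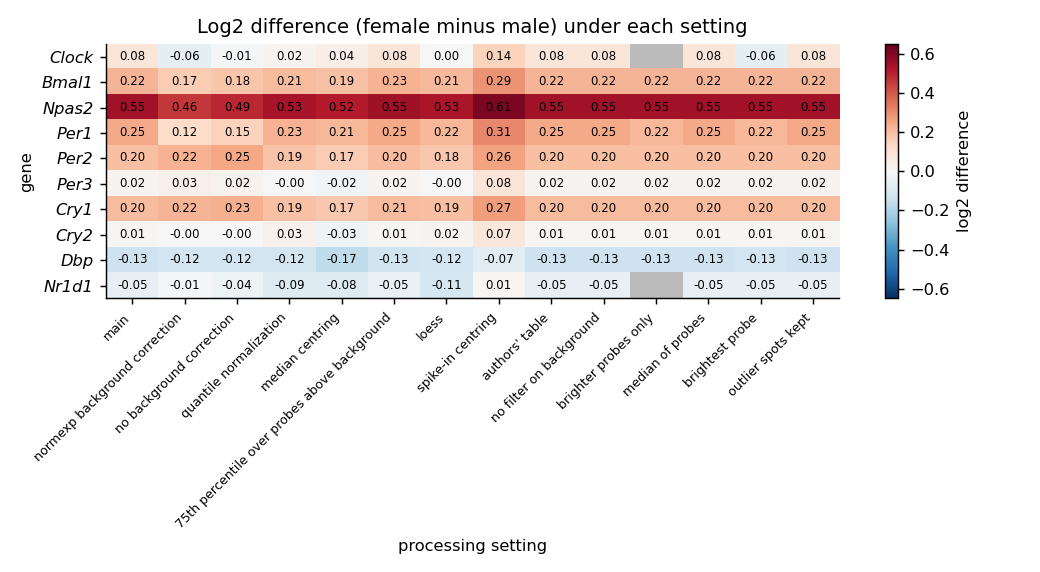
Log2 difference, female minus male, of each member (rows) under the main setting and the 13 other settings (columns), with the value in each cell and grey where no value could be had. The rows of Npas2, Bmal1, Per1, Per2 and Cry1 keep positive values throughout and the row of Dbp keeps negative ones, while Clock, Per3, Cry2 and Nr1d1 change sign in places.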

How the data were processed

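Intensity values were the authors' deposited scanner output. Per the file headers they were written by Agilent Feature Extraction 11.5.1.1, with background already subtracted and a design on build rn4, and the submitters' processing notes name version 9.1. The authors' deposited value table holds the same intensities, each array divided by 1 constant. Here log2 of the processed signal was taken minus the 75th percentile of each array. Control spots and spots with an outlier flag on either array were left out. Spots of a probe were averaged, and a gene was the mean of its probes well above background on both arrays. Of 45595 probes, 21109 were named through RefSeq accessions. Samples were grouped by the sex in the labels. With 1 pool a group no test was run. Genes past 1.5-fold were counted, with 1.1, 1.2 and 2 as other limits. The text names all 10 members, the measured genes of the wider clock list, apart from an item that is not reported here, and from the other lists the genes past 1.5-fold (at most 4), or the 2 brightest where none passed. For cell types with none past it, list summaries stand in place of those 2. The rest of the output list was named after its values were seen. The members and lists were chosen with earlier results of these data known. Alternatives were other background corrections (limma 3.58.1 in R 4.3.3, offset 50, on spot medians in place of the planned means), scalings, filters and gene summaries. Other steps used Python 3.11.15 with pandas 2.3.3, and the summary code was tested on simulated arrays.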

Additional observations from a re-analysis of the deposited data

How the results depend on the processing

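No paired analysis was possible because only 1 pool of each sex was hybridised and nothing was tested. Over 13 other settings the 10 members had 128 values, and each lay within the scanner error of its main value. Several settings could hardly move them. Member values were unchanged with no background filter, with the median of probes and with outlier spots kept. The authors' table holds the same intensities, and scalings by 1 constant per array shift all genes alike. The median over the members ran from 0.078 with normexp to 0.20 with spike-in centring, and that of the wider clock list from 0.025 to 0.14, also lowest with normexp. Activators minus repressors ran from 0.067 with normexp to 0.26 in the brighter probes, where the activators were Bmal1 and Npas2 without Clock. That contrast was 0.18 with Nr1d1 counted as a repressor and 0.016 without Npas2. The number of members past the limit was 0 at 1.5-fold, but 1 after centring on spike-in controls, where Npas2 reached 0.61. It was 1 at 1.2-fold, 0 at 2-fold and 5 at 1.1-fold. The 1.1-fold limit and the contrast without Npas2 were chosen after seeing the data. Spike-in centring moved the median of all genes by 0.067. Clock and Nr1d1 had no value among the brighter probes, and signals near background limit what can be said of them.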

Other observations

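Genes induced by glucocorticoids and immediate early genes were read from the same arrays, with no test. Of 10 glucocorticoid-induced genes, 8 were higher in females and 2 in males, with a median of 0.15, where 55.5% of all genes were higher in females (76.6% with spike-in centring). Zbtb16, a zinc finger transcription factor gene, was dim and read 0.863 in males and 1.70 in females, 1.97-fold higher. It was the one gene of this list past 1.5-fold. Klf9 read 72.7 and 89.3, a difference of 0.30, and Fkbp5, the co-chaperone gene of the glucocorticoid receptor, read 65.5 and 77.0, a difference of 0.23. Ddit4 went the other way at -0.29. Of 12 measured immediate early genes, 10 lay higher in males and 2, Egr3 at 0.21 and Ier2 at 0.0073, in females, with a median of -0.16. Over all genes, 55.5% were higher in females, or 76.6% with spike-in centring. Of these 12 genes, 5 were in the dimmest signal class and 6 in the next, where the SD of the difference over all genes was 0.36 and 0.20. Ccn1 read 6.04 in males and 3.43 in females, 1.76-fold lower, and Fos 7.27 and 4.74, 1.53-fold lower. No other immediate early gene passed 1.5-fold, a limit that 2.29% of all genes passed in either direction. Dusp1 is on both lists and lay at -0.23. Tsc22d3 and Cdkn1a, each at 0.15, are on the glucocorticoid list and also on the list of clock output genes, so those lists share values. Klf9, Fkbp5, Ddit4, Dusp1, Egr3 and Ier2 were chosen after their values were seen.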
